A study of Mus musculus with 32 samples.

Results

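The cells described here are cultured marrow stromal cells that carried transcripts of Dynap. A barcode was taken as a member when it held at least 1 unique molecular identifier (UMI, a counted transcript) of Dynap and at least 1 UMI of at least 2 of 6 companion genes, namely Hmga2, Grem1, Inhba, Loxl3, Sdc2 and Ccnd1. Barcodes were first kept if they had 400 to 6200 detected genes and at most 10% of their UMIs from mitochondrial genes. The first limits were read as detected genes, and applied to UMIs instead they gave a mean share of members over pools of 1.49%, against 4.11%. Of 90924 kept barcodes, 4088 were members, or 4.50%. Because measured values of these 7 genes chose the members, their levels are given as a description and were not tested. The cells came from Diversity Outbred (DO) mice, an outbred mouse population, whose femoral marrow was cultured in a medium with ascorbic acid, β-glycerophosphate and dexamethasone that drives bone formation (BMSC-OBs). Cells of 4 or 5 mice were mixed in each of 16 pools, 77 mice by the labels, and the transcripts of each pool were counted cell by cell in droplets, from their 3′ ends (scRNA-seq). No treatment or engineered genotype separated the pools, all of which shared the culture, and the age of the mice is not given in the sources used here. Each pool was sequenced in 2 runs from the same droplets, of which run HGYVNCCX2 was used. Cells were not assigned to mice here, so the pool was the replicate, and a difference that lies in 1 mouse of a pool cannot be told apart from one shared by its mice.

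Marrow stromal cells can mature into osteoblasts, which lay down and mineralize a collagen matrix, and further into osteocytes, or they can turn toward the adipogenic cells that supply the marrow with Cxcl12 and Kitl. Dynap encodes a dynactin associated protein. Hmga2, a chromatin protein of embryonic tissues, is kept low in most adult cells and is a textbook target of the let-7 microRNAs. Grem1 is a secreted antagonist of bone morphogenetic proteins (BMPs), Inhba encodes the chain that forms activin A, Loxl3 is a lysyl oxidase that cross-links collagen and elastin, Sdc2 is a heparan sulfate proteoglycan of the cell surface, and Ccnd1 is the cyclin that carries cells through G1.

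Hmga2 gave the state its name beside Dynap, so the stretches of its transcript that match let-7 are shown with the microRNA, although no microRNA was measured here. The first line is the mature mouse microRNA from RefSeq (GRCm38.p6) with its seed, bases 2 to 8, in capitals. The others are the matches to that seed (letters CTACCTC, searched on the transcript strand) in the 2977 bases of the 3′ UTR of a coding Hmga2 transcript in GENCODE M21 (GRCm38, minus strand), each 22 bases long, 5′ to 3′, with the match in capitals.
mmu-let-7a-5p: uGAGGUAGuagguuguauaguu
Hmga2 match 1, chr10:120364224-120364245: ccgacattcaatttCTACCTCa
Hmga2 match 2, chr10:120362987-120363008: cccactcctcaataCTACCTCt
Hmga2 match 3, chr10:120362549-120362570: tgatttgcaaggaaCTACCTCc
Hmga2 match 4, chr10:120361691-120361712: atcaaaacacactaCTACCTCt
The matches begin 21, 1258, 1696 and 2554 bases after the stop codon. Among 1120 other genes whose longest 3′ UTR was within 10% of this length, 14.1% held at least 1 such match and 1 gene held 4 or more. A match of letters is a description of the sequence and does not show that a microRNA acted on it in these cells.

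Total counts per pool lay between 53990642 and 100777353 UMIs. Of the barcodes of run HGYVNCCX2, 98.2% were also listed in the other run, and 1521 barcode sequences occurred in more than 1 pool. Doublets were scored but not removed for the main values: 5105 kept barcodes (5.61%) were called doublets, among them 396 members, or 9.69% of the members. Pool 18 stood apart from the others in the number of members. The main mean share of members, the Dynap background and the total counts of called genes in both main comparisons are given with and without it. Counts of single lists, of groups by Dynap level and of the other repeats are given with it only.

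The share of members differed widely between pools. It was lowest in pool 8 at 1.10% (51 of 4616 kept barcodes, exact Clopper-Pearson 95% interval 0.824 to 1.45%), had a median of 3.06%, and was highest in pool 18 at 15.8% (1200 of 7597, interval 15 to 16.6%). Pool 6 followed with 8.19% (interval 7.51 to 8.92%) and pool 2 with 6.64% (interval 6.05 to 7.27%). The intervals of the 3 highest pools did not overlap, though they describe counting error alone. The rank of pool 6 also depended on cells with little Dynap, as 313 of its 492 members held a single Dynap UMI. Its share of barcodes with at least 10 Dynap UMIs was 0.949%, below pools 18 (3.87%), 2 (1.78%), 11 (1.04%), 17 (1.04%) and 10 (0.971%). The mean over the 16 pools was 4.11% ± 3.64 (SD, n = 16), and without pool 18 it was 3.33% ± 1.95 (SD, n = 15). Pool 18 alone held 29.4% of all members.

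**Figure D1:**
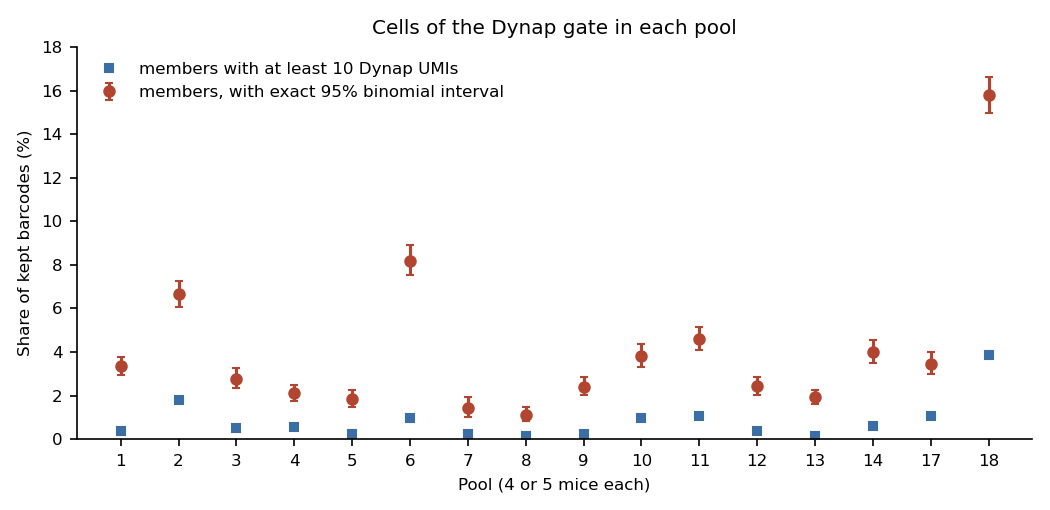
Share of kept barcodes (y axis, percent) that were members, for each pool (x axis), as red circles with exact 95% binomial intervals, and the share with at least 10 Dynap UMIs as blue squares. Pool 18 sits at 15.8%, and the other 15 pools lie between 1.10 and 8.19%.

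Most members carried little Dynap. A single Dynap UMI was counted in 1796 members (43.9%), 2 to 4 in 979 (23.9%), 5 to 9 in 493 (12.1%) and 10 or more in 820 (20.1%). The 820 cells at the top held 80.1% of all Dynap UMIs of the kept barcodes, and all members together held 97.6%. The highest counts in 1 cell were 305 UMIs in pool 17 and 304 in pool 18. Every pool had cells with at least 10 Dynap UMIs, from 6 cells in pools 7 and 8 to 294 in pool 18, which is 0.130% of kept barcodes in pool 8 and 3.87% in pool 18. The share of a pool's Dynap UMIs held by cells with at least 10 of them ran from 33.8% in pool 8 to 86.7% in pool 14, and pool 18 gave 18578 of the 43294 Dynap UMIs counted.

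Members were also deeply sequenced cells, which the rule favors since it asks for detected genes. Their median was 20855 UMIs and 4327 genes per cell, against 9041.5 UMIs and 2732 genes over all kept barcodes. Among collagen-passing cells (Col1a2 and Col3a1 together at least 5 per 10000 UMIs), members made up 2.91% of those with 1000 to 4000 UMIs and 10.1% of those above 20000 UMIs. Without pool 18 the first of these shares was 1.36%. Of the Dynap-positive collagen-passing cells above 20000 UMIs, 98.9% had 2 of the 6 companions, against 60.6% between 1000 and 4000 UMIs. In deep cells the rule was therefore close to Dynap detection alone. Just inside the rule were 654 barcodes with exactly 2 companions, whose median was 4695.5 UMIs, and just outside it were 497 Dynap-positive barcodes with exactly 1, whose median was 2824 UMIs. With every kept barcode thinned to 1000 UMIs and shallower ones left out, the mean share of members fell to 0.667% ± 1.23 (SD, n = 16), and pool 18 remained the highest at 5.10%. Without pool 18 that mean was 0.372% ± 0.351 (SD, n = 15).

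Across pools, the share of members and the median UMIs per kept barcode gave r = −0.33 (two-sided permutation test, p = 0.217) and rho = −0.29 (permutation p = 0.284) over 16 pools. Without the 2 pools farthest from the median depth, pools 13 and 1, r was −0.68 (permutation p = 0.0106) and rho −0.50 (permutation p = 0.0711). Without pool 18, r was −0.055 (permutation p = 0.848). The relation therefore depended on which pools entered, and this was the 1 relation across pools that was computed.

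The members carried the collagen genes that define stromal cells, as most kept barcodes did. Of the 4088 members, 4008 passed the collagen threshold (98.0%, against 90.2% of all kept barcodes). At least 10 leukocyte UMIs per 10000 were counted in 757 members (18.5%), and 19 members fell on the leukocyte side (at least 10 UMIs per 10000 of Ptprc, Tyrobp, Lyz2, Laptm5 and Fcer1g with collagen under the threshold). Hmga2 itself, the second gene of the name, was detected in 1913 members (46.8%), Grem1 in 1654 (40.5%), Inhba in 2504 (61.3%), Loxl3 in 3043 (74.4%), Sdc2 in 3706 (90.7%) and Ccnd1 in 3703 (90.6%). The larger number of members was therefore counted without an Hmga2 UMI, and all 6 companions were present in 749 cells.

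Leukocytes, which should lack a stromal transcript, gave the background for Dynap. After thinning to 1000 UMIs, a Dynap UMI was found in 0.218% ± 0.383 of leukocyte-side barcodes (SD, n = 16 pools; 6805 barcodes, median 5608.5 UMIs before thinning) and in 1.94% ± 3.49 of collagen-passing cells of 1000 to 4000 UMIs (21001 cells, median 2134 UMIs). The summed levels were 2.34 ± 3.82 and 26.5 ± 57.5 CPM (UMIs of a gene scaled to a total of 1000000, SD, n = 16), with medians of 1.25 and 6.38 CPM over the pools. In pool 18 the shares were 1.39% and 14.0%, so that its leukocyte-side value was also the highest of all pools. Without pool 18 the shares were 0.140% ± 0.229 and 1.13% ± 1.38 (SD, n = 15) and the levels 1.47 ± 1.64 and 12.8 ± 17.1 CPM. Unthinned, the shares were 1.21% ± 1.77 on the leukocyte side and 3.11% ± 5.07 in the shallower collagen-passing cells (SD, n = 16). In pools 7, 9, 12, 14 and 17 the unthinned leukocyte-side share was the higher one, as in pool 14 with 2.33% against 0.992%. It was the lower one in the other pools, as in pool 18 with 7.26% against 20.4%. Free RNA can place a UMI in a droplet whose cell does not express the gene, and the leukocyte-side level was taken as the background. Members with a single Dynap UMI were not removed for it and enter the main results.

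Among the collagen-passing cells of 1000 to 4000 UMIs, Dynap was detected unevenly. In the 10% of each pool highest in summed proliferation genes, 3.11% ± 5.23 (SD, n = 16) had a Dynap UMI after thinning, and 1.27% ± 1.65 of the 10% highest in contractile genes did. The values were 0.718% ± 1.28 in the 10% highest in osteoblast and osteocyte genes and 0.734% ± 1.17 in the 10% highest in adipogenic and marrow niche genes. All of these means carried pool 18, where the shares were 19.9% for proliferation, 4.78% for both the contractile and the osteoblast gates, and 3.19% for the adipogenic gate. Without pool 18 the means were 1.99% ± 2.78 for proliferation, 1.03% ± 1.40 for contractile, 0.447% ± 0.706 for osteoblast and 0.571% ± 1.00 for adipogenic genes (SD, n = 15). The spread over pools was wider than the means, and no order among the gates was tested.

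**Figure D2:**
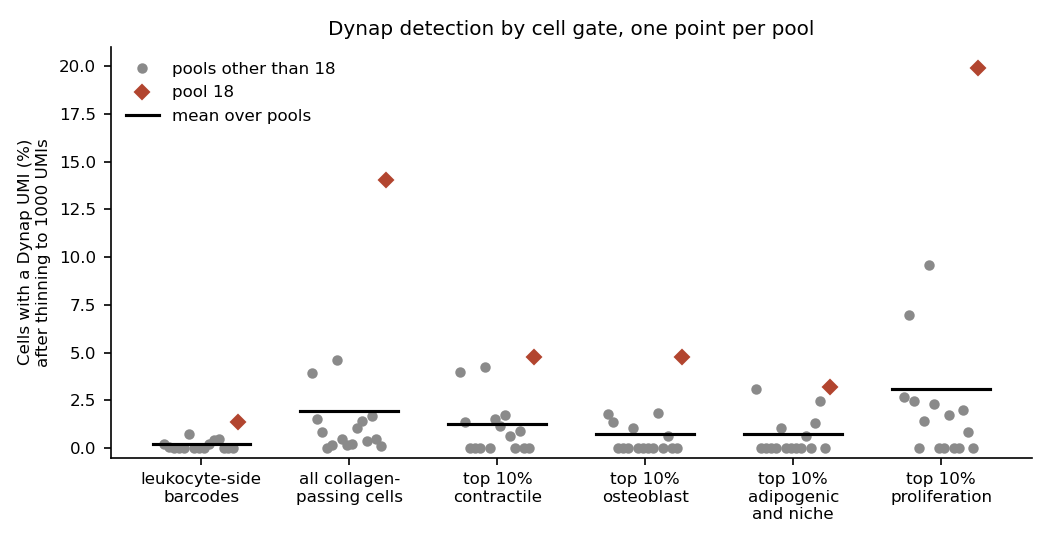
Share of cells with a Dynap UMI after thinning to 1000 UMIs (y axis, percent) in 6 gates (x axis), 1 point per pool with pool 18 as a red diamond and a line at the mean. Pool 18 is at 14.0% in collagen-passing cells and 19.9% in the proliferation gate, and leukocyte-side barcodes are at or below 1.39% in every pool.

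Reading the same droplets in the other run showed how often the rule picked the same barcodes. Of the members, 66.1% were members again in run HHFFMCCX2, and the mean share over pools there was 4.14% ± 3.65 (SD, n = 16). Members with 1 Dynap UMI were members again in 35.8% of cases and those with 10 or more in 95.4%. The recovery was lowest in pools 6 (43.3%), 14 (43.5%) and 13 (46.4%) and highest in pool 3 (86.3%). The members with the most Dynap were thus nearly all members again, and those with a single UMI mostly were not. Since the droplets were the same, this does not separate free RNA from a cell's own transcripts.

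The companions were more often seen with Dynap than without it when depth was equal. Collagen-passing cells were thinned to 4000 UMIs in the 15 pools with enough cells, giving 1847 cells with Dynap. Hmga2 was detected in 25.4% ± 16.7 of them against 5.74% ± 3.25 without Dynap (SD, n = 15), higher with Dynap in all 15 pools. Inhba was at 36.5% ± 7.10 against 14.4% ± 2.98, and Ccnd1 at 69.3% ± 14.5 against 42.6% ± 9.48, each also higher in 15 of 15 pools. Sdc2 was at 62% against 47.6%, Loxl3 at 35.8% against 23.1% and Grem1 at 20.4% against 12.3%, with Grem1 higher in 13 pools. These genes were chosen for this pattern, so no test is attached to it.

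To ask what else set the members apart, each of the 4008 collagen-passing members was compared with 3 collagen-passing cells of its own pool that had no Dynap and the nearest total UMIs, 12024 cells in all. The medians of both groups were close in every pool, but the deepest members of pool 18 outnumbered such cells, and its mean was 13743 UMIs in members against 12090 in matched cells. UMIs were summed per pool and group, and 11686 genes were tested by edgeR's quasi-likelihood method, blocked by pool, with Benjamini-Hochberg adjustment. Of these genes, 41.4% passed an adjusted p of 0.05, 20.5% (2395 genes) higher and 20.9% (2447 genes) lower in members, and the median log2 difference was 0.00056. A call was thus common, and the counts of gene groups that follow are read against these shares. The lists were chosen with earlier results of these cells known. The tested genes were read in the same droplets as the rule genes. A p-value therefore says only that the difference between a pool's 2 groups was large against its own spread over pools. Hmga2 had lowest, median and highest pool levels of 12.7, 65.9 and 232 CPM in members and 4.29, 13.9 and 50.1 in matched cells, with overlapping ranges. The rule genes themselves had log2 differences of 2.13 ± 0.17 for Hmga2, 1.29 for Grem1, 1.02 for Inhba, 0.74 for Ccnd1, 0.48 for Loxl3 and 0.37 for Sdc2 (SE for Hmga2), given without a test.

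Among the named genes that were higher in members were inhibitors of metalloproteinases and 3 genes of calcium-binding S100 proteins. Timp3, a matrix-bound inhibitor of metalloproteinases (ENSMUSG00000020044, chr10:86300372-86349506, GRCm38), had lowest, median and highest pool levels of 488, 1758 and 2772 CPM in members and 331, 477 and 1186 in matched cells. It was higher in members in 16 of 16 pools, by 1.48 ± 0.10 on the log2 scale (SE; edgeR, adjusted p = 1.59e-09), although the ranges of the pools overlapped. Timp2 had pool levels of 661, 1088 and 2142 CPM in members and 483, 628 and 764 in matched cells, a log2 difference of 0.80 ± 0.07 (edgeR, adjusted p = 2.63e-08, 16 of 16 pools). Timp1 was higher by 0.38. S100a4, a calcium-binding protein long used to mark fibroblasts (ENSMUSG00000001020, chr3:90603771-90606045), was at 532, 763 and 1579 CPM in members and at 235, 363 and 703 in matched cells. Its log2 difference was 1.10 ± 0.07 (edgeR, adjusted p = 7.29e-10, 16 of 16 pools), and S100a6 (0.91) and S100a10 (0.76) were higher in 16 of 16 pools as well. S100a8 (−1.55) and S100a9 (−1.57), the leukocyte genes of the same family, were lower, each in 15 of 16 pools, but neither passed in the other run (−1.25 and −1.28) or in members with at least 10 Dynap UMIs (−1.39 and −1.43).

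The largest positive log2 difference of a named gene was that of Stmn2, a regulator of microtubules best known from neurons (ENSMUSG00000027500, chr3:8509360-8561606). Its pool levels were 6.82, 86.3 and 274 CPM in members and 3.28, 17.3 and 44.7 in matched cells, and the log2 difference was 2.01 ± 0.17 (edgeR, adjusted p = 1.86e-08, 16 of 16 pools). Vim, the intermediate filament of mesenchymal cells, and Plec, the linker that ties such filaments to other structures, were higher by 0.78 ± 0.07 and 0.81 ± 0.08. Ank, which carries pyrophosphate out of cells and so bears on mineral formation, was higher by 1.10 ± 0.11 in 15 of 16 pools. Prrx2, a limb mesenchyme transcription factor, was higher by 0.88 ± 0.07, and its relative Prrx1 by 0.17. Ercc1, a DNA repair nuclease subunit, Qsox1, a disulfide-forming enzyme, and Fbln2, a matrix glycoprotein, were higher by 0.81, 0.75 and 0.71, each in 16 of 16 pools.

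**Figure D3:**
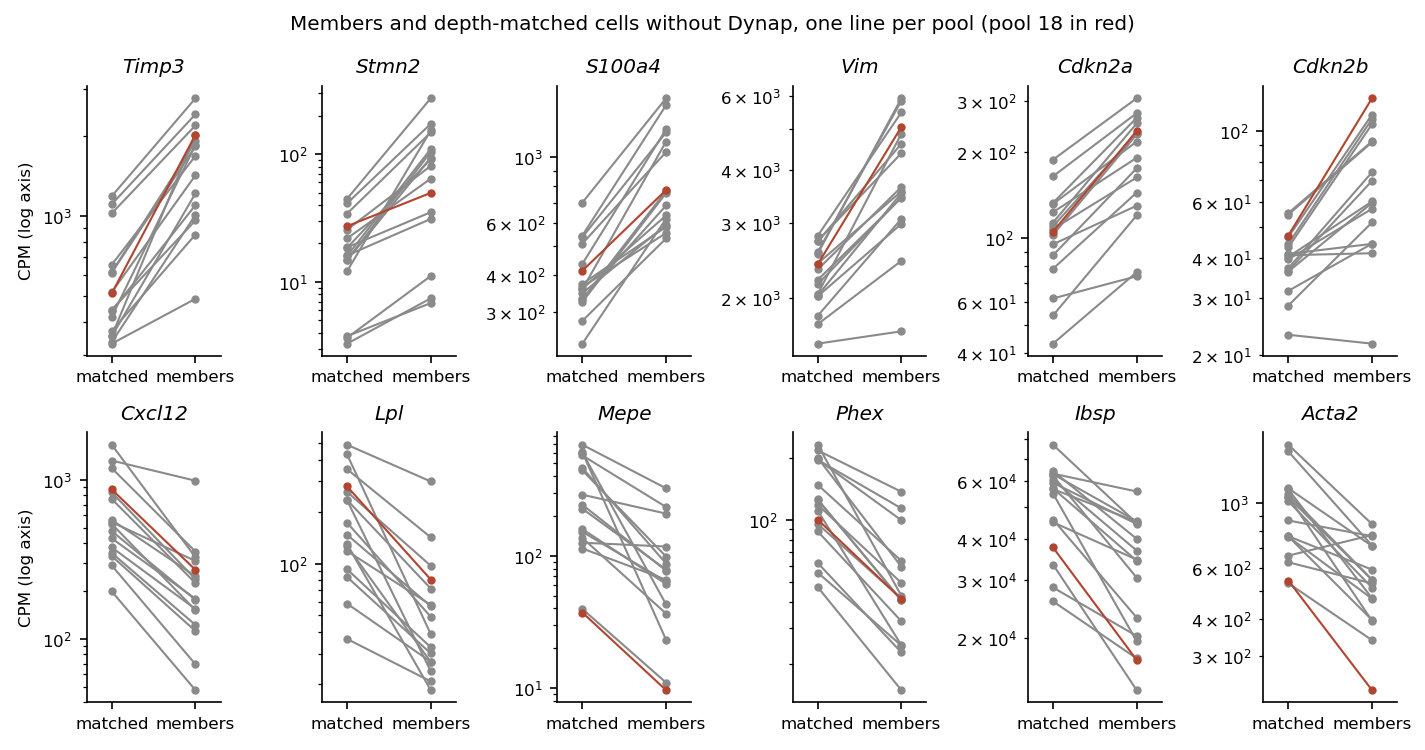
CPM (y axes, logarithmic) of 12 genes in depth-matched cells without Dynap and in members, 1 line per pool with pool 18 in red. The lines of Timp3, Stmn2, S100a4, Vim and Cdkn2a rise in 16 of 16 pools, that of Cdkn2b in 15, those of Cxcl12, Lpl, Mepe, Phex and Ibsp fall in all 16, and that of Acta2 in 15.

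Genes of cell cycle control went both ways. Of 20 genes of G1 and the p53 response, 7 were higher and 6 lower (median log2 difference 0.058). The inhibitors Cdkn2a and Cdkn2b, which hold back the D cyclins and their kinases or free p53, had the largest positive values of this list. Cdkn2a was at 73.8, 204 and 306 CPM over the pools in members and at 43.1, 107 and 187 in matched cells, and its log2 difference was 0.85 ± 0.06 (edgeR, adjusted p = 2.85e-09, 16 of 16 pools). Cdkn2b was at 21.6, 65.0 and 126 in members and at 23.1, 40.6 and 55.3 in matched cells, a log2 difference of 0.80 ± 0.10 (edgeR, adjusted p = 1.36e-06, 15 of 16 pools). The pool ranges overlapped for both genes. Ccnd2 (0.50), Cdk6 (0.44), Ccng1 (0.38), Mdm2 (0.32) and Cdk4 (0.13) were also higher. Among the lower ones were the inhibitors Cdkn1b (−0.57), Cdkn1c (−0.83) and Cdkn2c (−0.62) and the antiproliferative gene Btg2 (−0.60). Cdkn1a, the p53 target that blocks several cyclin kinases, had a log2 difference of 0.05 and was not past the threshold.

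Cdkn2a and Cdkn2b lie next to each other on chromosome 4, and Cdkn2a has 2 start sites in RefSeq whose transcripts, Arf from the upstream start and Ink4a from the downstream one, share their 3′ exons. Counting from the 3′ end adds them up, so which of them carried the difference cannot be told apart here. The windows from 200 to 51 bases before each start are shown because these genes moved together (RefSeq, GRCm38.p6, minus strand, 5′ to 3′, with CG dinucleotides in capitals).
Cdkn2a, upstream start, chr4:89294670-89294819: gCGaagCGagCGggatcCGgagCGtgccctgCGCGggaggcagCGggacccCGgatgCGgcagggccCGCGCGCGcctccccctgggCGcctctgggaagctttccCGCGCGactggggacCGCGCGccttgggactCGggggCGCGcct
Cdkn2a, downstream start, chr4:89282243-89282392: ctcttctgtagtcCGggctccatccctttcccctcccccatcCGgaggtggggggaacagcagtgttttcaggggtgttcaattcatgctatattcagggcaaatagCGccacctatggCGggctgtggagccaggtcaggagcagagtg
Cdkn2b, chr4:89311083-89311232: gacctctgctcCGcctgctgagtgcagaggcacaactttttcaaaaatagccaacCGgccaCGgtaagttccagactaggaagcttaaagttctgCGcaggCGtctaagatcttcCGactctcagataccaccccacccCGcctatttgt
The upstream window of Cdkn2a held 24 CG dinucleotides and a G and C content of 79.3%, its downstream window 4 and 58.0%, and that of Cdkn2b 7 and 52.7%. Of all 32851 promoter windows in the table, 1.85% held at least 24, 47.6% at least 4 and 33% at least 7.

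In the matched comparison, genes of DNA replication and mitosis were lower in members. Of 19 tested proliferation genes, none was higher and 18 were lower (median log2 difference −0.55), against 20.9% lower over all genes. Mki67, the proliferation antigen, was at 2.18, 10.4 and 51 CPM in members and 15.3, 20.9 and 58.1 in matched cells, a log2 difference of −0.85 that passed edgeR's test (lower in 13 of 16 pools). Top2a, the mitotic topoisomerase, differed by −0.88 and Cdk1 by −0.55. None of these 3 genes passed without the pairing by pool. The summed list was higher in members in 3 of 16 pools. In the cells of 1000 to 4000 UMIs that are compared further on, where 1.08% of all tested genes were higher and 5.59% lower, none of the 19 genes passed the threshold and the median was 0.15. The summed list was higher in members in 4 of 6 pools there, with means of 854 CPM against 642. That comparison has limits. On simulated data it recovered 27.5% of 200 genes changed by 1 on the log2 scale, and its cells without Dynap held more leukocyte transcripts.

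Osteoblast and osteocyte genes were lower as a group in the matched comparison, with the largest values among genes of osteocytes. Of 21 tested, 16 were lower and 2 higher, with a median log2 difference of −0.44. The osteocyte genes Sost, an antagonist of Wnt signaling, Mepe, a matrix phosphoglycoprotein, and Phex, a peptidase of phosphate control, had log2 differences of −1.66 ± 0.22, −1.61 ± 0.21 and −1.35 ± 0.09. Phex was at 15, 41.5 and 137 CPM over the pools in members and at 47.3, 122 and 231 in matched cells, lower in 16 of 16 pools (edgeR, adjusted p = 1.92e-09). The osteocalcin genes Bglap and Bglap2 differed by −1.13 and −1.08, and Ibsp, bone sialoprotein, by −0.73. Genes of earlier stages had smaller values: Alpl, the alkaline phosphatase of mineralizing cells, by −0.31, and Runx2, the master regulator of the lineage, by −0.12, which did not pass. Runx2 passed without pool 13 (−0.14), with at least 3 of the 6 companions (−0.15) and with 1 matched cell per member (−0.15), among other settings, but not in all. Sp7, the transcription factor of committed osteoblasts, was higher by 0.25 in 15 of 16 pools and Spp1, osteopontin, by 0.22 in 12. Bglap and Bglap2 are near-identical copies, so their separate values are uncertain.

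The adipogenic and marrow niche genes had the lowest median of the lists with more than 1 tested gene, −0.88, with 18 of 20 lower and none higher. Cxcl12, the chemokine that retains blood stem cells, was at 47.6, 202 and 989.6 CPM in members and 199, 536 and 1666 in matched cells, a log2 difference of −1.54 ± 0.11 (edgeR, adjusted p = 1.74e-09, lower in 16 of 16 pools). Lpl, lipoprotein lipase, was at 18.4, 44.0 and 299.7 in members and 36.5, 159.9 and 489.5 in matched cells, and differed by −1.69 ± 0.16. Adipoq, adiponectin, differed by −1.71 ± 0.15, Fabp4 by −1.37 and Kitl, the niche ligand for the Kit receptor, by −1.17. The receptor Lepr and the adipogenic regulators Pparg and Cebpa had log2 differences of −0.65, −0.82 and −0.84 and passed as well. Hp, haptoglobin, which was on no list, had the largest negative difference of a named gene, −2.07 ± 0.17, lower in 16 of 16 pools.

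Since the matched cells held more of both lineages, the comparison was repeated among members and cells without Dynap that lay under their pool's median for the combined sum of the osteoblast and adipogenic lists, an alternative chosen after seeing the data. Too few deep cells were left to match depth in pool 18, where the median was 10008 UMIs in members and 5211 in the others. It gave 1748 genes higher and 1915 lower, of which 1401 and 1423 were shared with the first comparison. Sost (−0.46), Mepe (−0.49) and Phex (−0.34) no longer passed there, but they belong to the osteoblast and osteocyte list on which both groups were limited, so that smaller values of these genes were built in.

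Structural collagen and its processing were lower in part. Of 21 lysyl oxidases and collagen-processing genes, 16 were lower and 1 higher (median −0.30). Loxl2 and Loxl4 differed by −0.42 and −0.58, and Lox, at −0.17, and Loxl1, at −0.14, did not pass. Lox was near the threshold: it passed without pool 13 (−0.19), in the other run (−0.17) and in members with at least 10 Dynap UMIs (−0.77), among other settings, but not in all. Among cells with low osteoblast and adipogenic sums, Lox (−0.26) and Loxl1 (−0.40) both passed. The chaperone Serpinh1 differed by −0.36 and the lysyl hydroxylase Plod2 by −0.54. Of 31 matrix genes, 13 were lower and 7 higher: Col1a1 differed by −0.66, Col11a1 by −0.93, Sparc by −0.55 and Bgn by −0.57, while fibronectin (Fn1, 0.31), periostin (Postn, 0.39) and the hyaluronan synthase Has2 (0.92) were higher. Of 20 proteases and inhibitors, 4 were higher, namely Timp1, Timp2, the membrane-bound metalloproteinase Mmp14 (0.44) and the plasminogen activator Plat (0.89), and 8 were lower, among them the collagenase Mmp13 (−0.86). In the cells of 1000 to 4000 UMIs compared further on, with 1.08% of all tested genes higher and 5.59% lower, of 20 collagen-processing genes none was higher and 1 lower (median 0.061), and of 30 matrix genes 4 were higher and 1 lower (median 0.23), with Col1a1 at 0.070 and not past the threshold. The limits given above for that comparison were low recovery and more leukocyte transcripts in its cells without Dynap. They apply here and to its values in the paragraphs that follow.

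In the activin, BMP and TGF-β pathway, the family of the rule genes Grem1 and Inhba, 13 of 43 genes were higher and 15 lower (median −0.088). Among the ligands, Bmp2 (0.57), Tgfb2 (0.57) and the activin B chain Inhbb (0.81) were higher, and Bmp4 (−0.85) and Tgfb3 (−0.38) lower. Among the antagonists, Fst, the follistatin that binds activin, had a log2 difference of −0.69 and the BMP antagonist Chrdl1 one of −1.41, each lower in 16 of 16 pools. The receptors Tgfbr1 (−0.42) and Tgfbr3 (−0.47) were lower, and Acvr1 (0.27) was higher. Of the target genes, Id1 was higher (0.32), and Id2 (−0.19), Id3 (−0.17), Smad6 (−0.24) and Smad7 (−0.21) were lower. The latent TGF-β binding proteins Ltbp2 (0.67) and Ltbp4 (0.74) were higher. Among the cells of 1000 to 4000 UMIs, 3 of 36 genes of this list were higher and 2 lower (median 0.067), against 1.08% and 5.59% of all tested genes. Fst (0.21) and Chrdl1 (−0.76) did not pass there.

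Smaller groups around the other rule genes gave mixed counts. Of 21 YAP and TEAD target genes, 9 were higher and 5 lower: the receptor kinase Axl was higher by 0.85 in 16 of 16 pools, the calcium-dependent repair protein Myof by 0.46, and the matricellular gene Cyr61 (−0.39) and the growth factor binding Igfbp3 (−1.33) were lower. Of 22 contractile genes, 3 were higher and 10 lower, with Acta2, the smooth muscle actin, at −0.77, Mylk, the myosin light chain kinase, at −0.71 and Tagln at −0.66. In the cells of 1000 to 4000 UMIs, where 6.67% of all tested genes passed in either direction, none of 21 contractile genes passed (median 0.17), with Acta2 at −0.011 there. Of 15 heparan sulfate genes, 5 were higher, among them Sdc1 (0.31), and 5 lower, among them Sdc4 (−0.28). Of 9 tested genes linked to Hmga2 and let-7, 4 were higher and 4 lower: Hmga1, its relative, by 1.75, its listed copy Hmga1b by 1.77, the RNA-binding Igf2bp2 by 0.51 and Nras by 0.28, whereas the imprinted RNA H19 was lower (−1.24). Hmga1 and Hmga1b are near-identical, so their separate values are uncertain and they are not independent entries of this list. Hmga1 was also low, with pool medians of 3.77 CPM in members and 1.15 in matched cells. Lin28a and Lin28b, the blockers of let-7, were too low to be tested.

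Lists of signals to other cells, stress responses and other lineages were read against the 20.5% of all genes that were higher and the 20.9% that were lower. Of 22 growth factors and cytokines, 6 were higher, among them Csf1 (0.30), the osteoprotegerin gene Tnfrsf11b (0.43) and Ptgs2 (0.40), and 9 lower, among them Igf1 (−1.08), Vegfc (−1.35) and the osteoclast ligand Tnfsf11 (−1.21). Immediate early genes, which rise when cells are handled or stimulated, were lower in 12 of 14 cases (median −0.36), with Fos at −0.55 and Atf3 at −0.72, and Fosl1 was higher by 0.42. Of 10 glucocorticoid response genes, 1 was higher and 4 lower. Of 12 tested mesenchymal progenitor genes, 4 were higher, among them Twist1 (0.43) and Cd44 (0.28), and 4 lower, among them Pdgfra (−0.54). Of 7 chondrocyte genes 2 were higher, Col10a1 (1.06) and Hapln1 (0.94), and 2 lower, Col2a1 (−0.77) and Comp (−1.04).

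**Figure D4:**
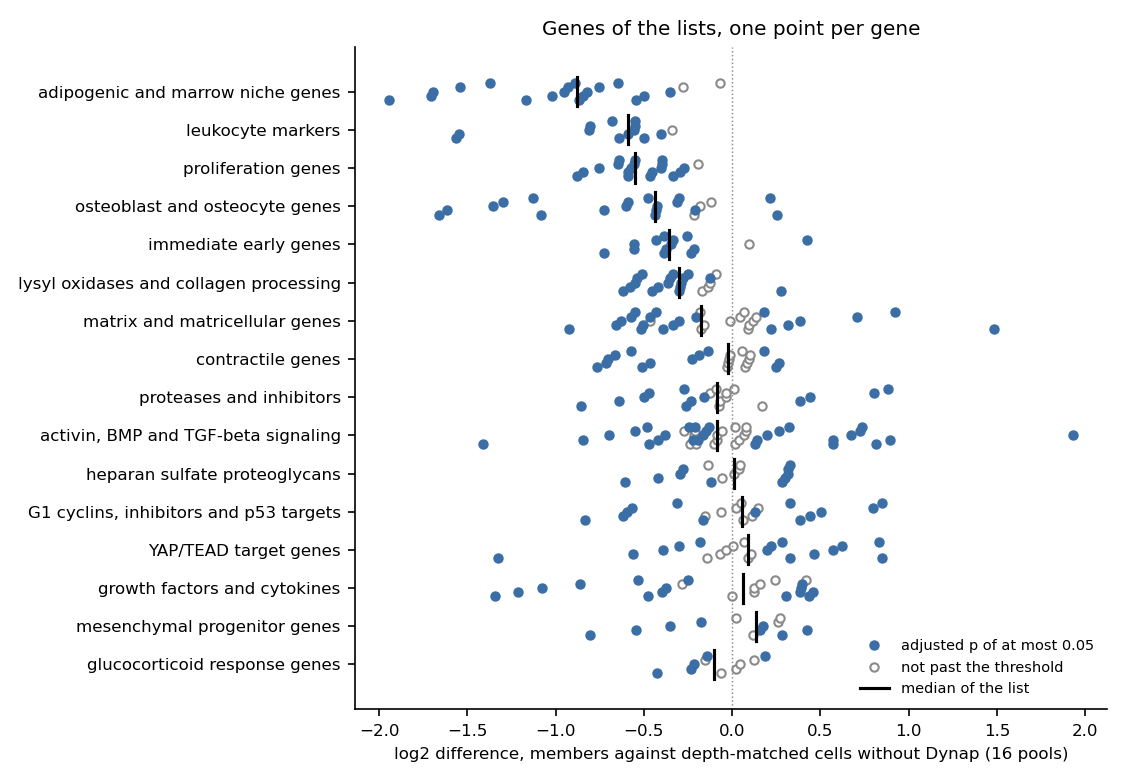
Log2 difference between members and depth-matched cells without Dynap (x axis) for each tested gene of 16 lists (y axis), filled where the edgeR adjusted p was at most 0.05, with a bar at each list's median. Among the lists plotted, which leave out the genes of the rule, the list linked to Hmga2 and let-7, the chondrocyte list and the endothelial, glial, pericyte and erythroid markers, the medians run from −0.88 in the adipogenic and marrow niche list to 0.14 in the mesenchymal progenitor list.

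Markers of other cell types were followed beside these differences. The 13 leukocyte markers, all detected in both groups, summed to between 190.5 and 1809.6 CPM in members and to between 191 and 4367 in matched cells, with members higher in 3 of 16 pools, and 12 of 13 were lower (median −0.59). The part of leukocyte transcripts in the other results was checked by limiting both groups to cells with under 10 leukocyte UMIs per 10000, which gave 2430 genes higher and 2350 lower, 2216 and 2161 of them shared. In pool 18 the medians were then 16544 UMIs in members and 14184 in the others. The 8 endothelial markers summed to between 3.39 and 31.4 CPM in members and to between 7.41 and 34.1 in matched cells. The 7 pericyte and smooth muscle markers summed to between 57.1 and 253 and to between 60.3 and 304, and of 5 tested 4 were lower, with Rgs5 at −1.36, and Cspg4 was higher by 0.22. The 6 glial markers stayed at or below 4.09 CPM in members, and the erythroid markers at or below 0.274. Without the called doublets, 2254 genes were higher and 2359 lower, and without pool 18, 2130 and 2083.

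The comparison was repeated among shallow cells, where the rule depends most on the companions: 592 collagen-passing members of 1000 to 4000 UMIs against 11648 cells without Dynap in the same range, over the 6 pools with at least 10 cells in both groups. Members had to hold at least 2 companions, which over all pools 612 of 1010 Dynap-positive collagen-passing cells of this range did. The cells without Dynap had no such condition, here or in the matched comparison. Differences in genes that go with or against the companions can thus come from the rule, and how far they did was not tested. Within that range the members were deeper in 5 of 6 pools, most in pool 11 with medians of 2800 against 1812 UMIs, and shallower in pool 6 with 2295 against 2376. Of 8732 genes, 6.67% passed edgeR's test at an adjusted p of 0.05, 1.08% (94 genes) higher and 5.59% (488 genes) lower in members. Without pool 18, which held 361 of these members, the counts were 51 and 301. Timp3 had the largest positive difference among the named genes here: its lowest, median and highest pool levels were 275, 2511 and 4405 CPM in members and 218, 503 and 1078 in the others, and it was higher by 1.69 ± 0.20 in 5 of 6 pools (edgeR, adjusted p = 1.12e-09). Prrx2 was at 85.5, 120.3 and 184 in members and 19.7, 61.8 and 70.9 in the others, with no overlap, and was higher by 1.38 ± 0.22 in 6 of 6 pools. Ndn, an imprinted growth regulator, did not overlap between the groups either and was higher by 1.40 ± 0.32. Cdkn2b (1.35), Ank (1.23), Cdkn2a (1.17), Ercc1 (1.15) and Timp1 (1.10) were higher as well, together with the engulfment receptor Megf10 (1.22) and the homeobox gene Irx3 (1.04). Of the genes named here, Ndn (1.02), Megf10 (0.98) and Irx3 (0.60) did not pass among cells with few leukocyte UMIs, described next. Ndn was at 0.86 and did not pass in the other run, and Cdkn2a did not pass with DESeq2 (adjusted p = 0.058).

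The genes with the largest negative values in this comparison are mostly known from leukocytes. They began with S100a8 (−3.01) and S100a9 (−2.99), the neutrophil calcium-binding pair, and went on with the scavenger receptor Msr1 (−2.63) and the complement gene C1qa (−2.26). S100a9 did not pass with DESeq2 (−2.81, adjusted p = 0.093), and neither of the pair passed without the pairing by pool. Of the 13 leukocyte markers 12 were lower (median −1.93), and their sum lay between 770.3 and 9052 CPM in members and between 2799 and 24361 in the other cells, lower in members in 6 of 6 pools. With both groups limited to under 10 leukocyte UMIs per 10000, 20 genes were higher and 98 lower, of which 16 and 29 were shared. Of the osteoblast and osteocyte list, 1 gene was higher (Spp1, 0.73) and 2 were lower (median −0.033). The sum of this list was higher in members in 4 of 6 pools, with means of 41526 CPM against 33640, unlike in the matched comparison. Spp1 did not pass with the leukocyte limit (0.34, edgeR, adjusted p = 0.55) or with DESeq2 (adjusted p = 0.15). Ibsp did not pass in the main fit, but it passed as lower with the leukocyte limit (−0.70, edgeR, adjusted p = 0.016). It also passed as lower with at least 3 of the 6 companions (−0.51) and without the filter on low counts (−0.34). With members of any depth it was higher (1.14). Of the adipogenic list, 6 of 18 were lower and none higher (median −0.56).

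The fitted differences were of larger size in cells with more Dynap. The matched comparison was repeated for members with 1, 2 to 4, 5 to 9 and 10 or more Dynap UMIs, each with its own depth-matched cells, in 16, 16, 14 and 14 pools. Over the 15 named genes with the largest positive differences, all given above, the median log2 difference was 0.51, 0.77, 1.00 and 1.34 in these groups, and over the 15 with the largest negative ones it was −0.96, −1.63, −1.71 and −2.95. Those 15 were Hp, Adipoq, Lpl, Sost, Mepe, S100a8, S100a9, Cxcl12, Fabp4, Phex and H19 together with Esm1 (−1.60 over all members), Il1rn (−1.45), Car3 (−1.30) and Gal (−1.30). The groups differ in cell number and depth, and their differences from each other were not tested. The 30 genes were chosen from all these cells combined, so their direction is not a result here, and only the sizes are described.

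With 1 Dynap UMI, 330 genes were higher and 407 lower of 10357. With 10 or more, 2095 were higher and 2148 lower of 9096. In the richest cells Timp3 differed by 2.16 ± 0.14, Stmn2 by 2.64 ± 0.23, S100a4 by 1.78 ± 0.11, Kcnn4, a calcium-activated potassium channel, by 1.71 ± 0.11, and Mgp, the matrix Gla protein that hinders calcification, by 1.5 ± 0.25. Serpinb2, an inhibitor of plasminogen activators, was at 72.8 ± 93.4 CPM in these cells against 2.99 in their matched cells (SD, n = 14), a log2 difference of 4.43 ± 0.33 (edgeR, adjusted p = 4.81e-09, higher in 13 of 14 pools). Axl differed along the 4 groups by 0.50, 0.65, 1.02 and 1.42.

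Bglap, Phex and Mepe had their most negative values in the richest cells. Bglap differed by −0.61, −1.21, −2.13 and −3.04 along the groups, Phex by −0.65, −1.57, −2.36 and −3.04, and Mepe by −0.96, −1.74, −3.16 and −3.52. Cxcl12 differed by −1.06, −2.13, −1.66 and −2.65. The median of the osteoblast and osteocyte list was −0.19 with 1 Dynap UMI and −1.36 with 10 or more, and that of the proliferation list −0.32 and −1.22. That of the adipogenic and marrow niche list was −0.68, −1.09, −1.01 and −1.0 along the groups. The medians of the YAP and TEAD list, by contrast, were 0.09 and 0.10 at both ends. Spp1 was an exception among bone matrix genes, with 0.25, 0.29, 0.42 and −0.067, of which the first and the third passed. Runx2 differed by −0.42 and Sp7 by 0.27 in the richest cells.

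**Figure D5:**
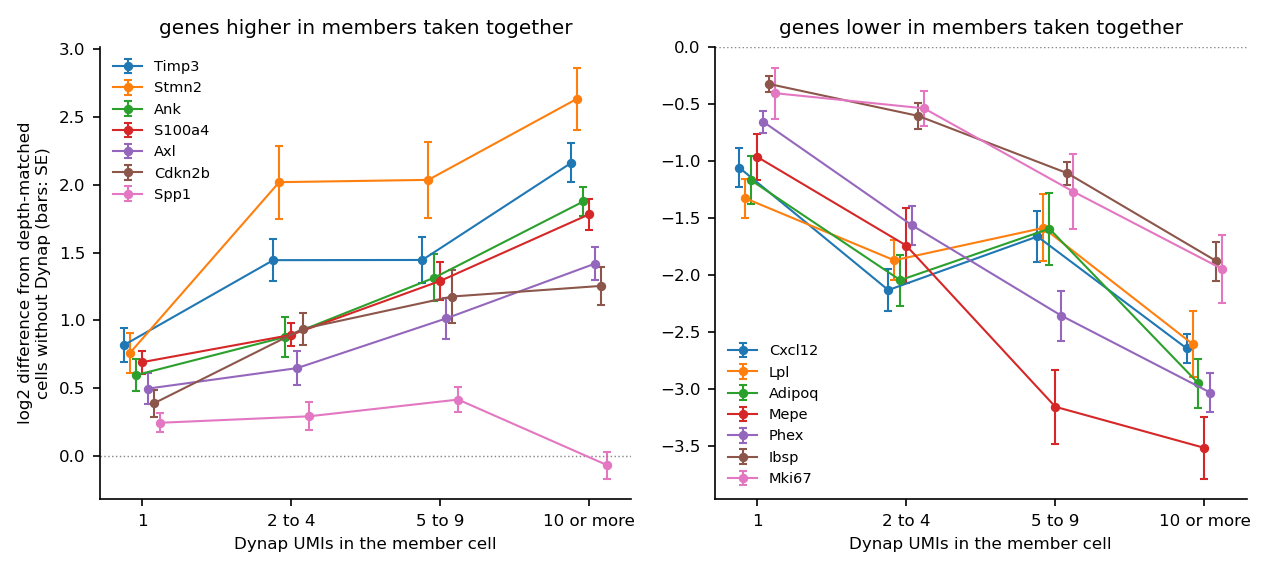
Log2 difference from depth-matched cells without Dynap (y axes, with SE bars) for 14 genes in members with 1, 2 to 4, 5 to 9 and 10 or more Dynap UMIs (x axes). Timp3 goes from 0.82 to 2.16 and Stmn2 from 0.76 to 2.64, while Mepe goes from −0.96 to −3.52 and Ibsp from −0.32 to −1.88.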

How the data were processed

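With Cell Ranger 5.0.0 and the GRCm38 (mm10) build, the authors turned the reads into UMI counts and deposited, for each of 32 samples (16 pools in 2 runs), a matrix of counts, that is whole UMI counts per gene and barcode that are not normalized and come before their own cell filters and their genotype-based assignment. Coordinates were taken from GENCODE M21 by gene identifier. Here, barcodes were kept with 400 to 6200 genes and at most 10% mitochondrial UMIs. The members and the gene lists were chosen with earlier results of these data known. UMIs of the collagen-passing members and of cells without Dynap were summed per pool and group (at least 10 cells each), genes with low counts were removed (filterByExpr), and counts were scaled by TMM and tested with edgeR 4.0.16 in R 4.3.3 with the pool as a block and Benjamini-Hochberg adjustment over all genes. The pools are separate sets of mice, and the 2 groups of a pool come from the same library. The deviations of a pool's 2 groups were positively correlated in every pool (lowest 0.115). With the pool as a block, p-values set a difference between the groups against its spread over pools, not against the spread of levels between pools. In tests on simulated data, 99.5% of 200 genes changed by 1 on the log2 scale were recovered in the matched comparison (11695 genes) and 27.5% in that of shallow cells (8741 genes). Matched cells were the 3 nearest in total UMIs, not yet taken. Doublet scores came from artificial pairs of droplets (2 for each droplet of a pool) placed among the real ones in 30 principal components of 2000 variable genes, and 0.8% per 1000 barcodes were called. Named genes were the 15 with the largest positive and the 15 with the largest negative log2 difference among those past the threshold, in the fitted direction in at least 80% of pools and at 50 or more CPM in the higher group, leaving out rule genes, mitochondrial and ribosomal genes and gene models. Genes of the lists were named besides. The groups by Dynap level, and the genes named from the richest of them, were added after seeing the data. DESeq2 1.42.0, other normalization, filters, runs, gates and left-out pools were alternatives. Values of some genes are not reported here.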

Additional observations from a re-analysis of the deposited data

Results flagged for a closer look

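In the comparison of shallow cells of 1000 to 4000 UMIs, the log2 difference of each of the 30 named genes was examined over its 6 pools for 1 pool far from the others by Dixon's test, which flags about 1 in 20 groups by chance. It marked 3 genes. Nav2 had a log2 difference of −1.19 in pool 13, whereas the other pools lay between 0.83 and 1.66. Ddah1 was at −5.90 in pool 11, where its members held 0 CPM, and between 0.59 and 2.33 in the others. Alox5ap was at −9.43 in pool 2, where its members held 0 CPM, and between −3.55 and −0.94 in the others. Both of these values are set by the offset added to a count of 0 in few cells, so they are not measured sizes.

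Barcodes over the limit of 6200 genes enter no result above. There were 2264 of them, and 30.5% met the rule for members (690 barcodes), against 4.50% of kept barcodes. Of these 690, 321 had at least 10 Dynap UMIs.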

How the results depend on the processing

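Both gene comparisons paired the groups of a pool. Without the replicate block, 800 genes were higher and 648 lower in the matched comparison, and 11 and 119 among shallow cells, all of them also called with the pairing. Among shallow cells, Timp3 (1.95), Ank (1.41), Megf10 (1.41), Cdkn2a (1.20) and Timp1 (1.01) then did not pass, among 20 named genes that lost their call, with S100a8 (−2.25), S100a9 (−2.17) and Spp1 (0.74) also among them. In the matched comparison 12 named genes lost theirs: Mki67 (−0.69), Top2a (−0.69), Cdk1 (−0.40), Pcna (−0.25), Sp7 (0.26), Spp1 (0.26), Alpl (−0.27), Loxl2 (−0.38), Igfbp3 (−1.24), Egr1 (−0.20), S100a8 (−1.22) and S100a9 (−1.32). Leaving out pool 13 or pool 18 gave 2130 to 2465 higher and 2083 to 2495 lower genes in the matched comparison, and 51 to 117 and 301 to 552 among shallow cells. Among members with 1 Dynap UMI, 330 and 407 genes passed. Among shallow cells, DESeq2 called 33 higher and 227 lower, no filter on low counts gave 744 lower, limiting leukocyte transcripts gave 20 and 98, and members of any depth against the shallow cells gave 3884 and 3646. The last of these turned Ibsp (1.14), Tagln (0.92), Acta2 (0.74), Myl9 (0.67) and Cdkn1a (0.30) to higher, and the leukocyte limit gave S100a8 at 0.37 and S100a9 at 0.076, neither past the threshold. Gstp1 was at −0.46 in the other run, and Spp1 at −0.067 in members with at least 10 Dynap UMIs. Without thinning, the Dynap share was 1.21% on the leukocyte side and 3.11% in collagen-passing cells of 1000 to 4000 UMIs. Without the 2 pools farthest from the median depth, the share of members and pool depth gave r = −0.68. Apart from those given, causes were not tested. The mean share of members lay between 0.667% (thinned to 1000 UMIs) and 4.26% (without pool 13). The members of the shallow comparison summed to as few as 36348 UMIs in a pool, and 6 pools entered it.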

Other observations

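Genes of the sex chromosomes give a coarse view of whether the members of a pool came from its mice in the same proportions as its other cells. Among cells with at least 8000 UMIs, a UMI of Ddx3y, Eif2s3y, Kdm5d or Uty, genes of the Y chromosome, was found in pool 11 in 55.5% of 2581 cells without Dynap, in 86.2% of 239 members and in 96.8% of the 62 members with at least 10 Dynap UMIs. In pool 7 the shares were 59.7% of 1247 cells without Dynap and 90.9% of 33 members, and all 6 members with at least 10 Dynap UMIs had a Y-linked UMI. In pool 9 the order was the other way, with 57.0% of 3264 cells without Dynap, 38.5% of 130 members and 35.7% of the 14 with at least 10 Dynap UMIs, and Xist, the RNA made from the inactive X chromosome, was detected in 43.6%, 73.1% and 64.3%. In pool 6 a Y-linked UMI was found in 33.8% of 2973 cells without Dynap, in 40.0% of 412 members and in 14 of the 56 members with at least 10 Dynap UMIs. Cells without Dynap and members lay closer than in pools 11, 7 and 9 in pools 5 (82.7% and 82.1%), 8 (44.9% and 42.0%) and 14 (42.8% and 39.0%). The same held for pools 10 (52.9% and 61.7%) and 12 (43.3% and 54.0%), and by less for pool 13 (75.1% and 91.5%). Among members with at least 10 Dynap UMIs, the Y-linked share was 0% of 6 in pool 8 and 100% of 11 in pool 13. It was 91.7% of 12 in pool 5, 55.6% of 45 in pool 10, 52.4% of 21 in pool 12 and 36.7% of 30 in pool 14. In pools 1, 2, 3, 17 and 18, Xist was detected in at most 0.262% of cells without Dynap and in no member. These genes cannot separate the mice there, and pool 18 held 29.4% of all members. In pool 4, where 0.309% of the cells without Dynap had a Y-linked UMI, Xist was detected in 75.3% of the cells without Dynap, 62.8% of the members and 47.1% of the 34 members with at least 10 Dynap UMIs. With so few Y-linked cells, these shares do not show the proportions of its mice. Summed Xist was 416, 308 and 216 CPM in the same groups, so Xist shares alone are not read as proportions of mice. These are shares of cells within 1 library each, so no test over mice is attached to them.

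Cells were not assigned to mice here, and a pool in which 1 mouse gave most members cannot be told apart from a pool in which all mice did. Members with a single Dynap UMI make up 43.9% of the members, and 35.8% of them were members again in the other run. Both runs read the same droplets, so this share cannot tell free RNA from a cell's own transcript. How many of these members lie near the background was not tested.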
